A study of Mus musculus with 11 samples.

Results

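The transcripts described here encode the nuclear subunits of the respiratory chain, complexes I to V. Complexes I to IV pass electrons from NADH and succinate to oxygen, and I, III and IV pump protons across the inner mitochondrial membrane. Complex V is the ATP synthase that the proton gradient drives. The transcripts were chosen by gene symbol alone (Nduf a, b, c, s or v with a number or letter, Sdha to Sdhd, Uqcr, Cox4 to Cox8 with a letter, and Atp5, with the Ndufaf assembly factors left out). Of the 20893 genes in the expression table, 82 matched. Of these, 80 reached 0.5 eRPKM in at least 3 livers and were tested among 14244 genes: 38 of complex I, 4 of complex II, 8 of complex III, 14 of complex IV and 16 of complex V. The eRPKM is the submitters' read number scaled by exon length in kilobases and by library size. The matching genes under the filter were the complex IV isoforms Cox7b2, with a highest value of 0.742 eRPKM, and Cox8c, with a highest value of 0.384 eRPKM, each of which is 1 read.

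Bulk RNA-seq was run on 11 whole mouse livers of the C57BL/6 background carrying ROSA26-rtTA-IRES-EGFP, the tetracycline transactivator behind a stop cassette that Cre removes. The 4 control livers, named WT in the labels, had no YAP transgene and came from mice given doxycycline food for 7 days. The other livers carried tetYAP, a doxycycline-driven activated mutant of YAP, and were taken after doxycycline food for 3 days (4 livers) or 7 days (3 livers). In this line Cre is driven by the albumin promoter, so the transgene is switched on in cells of the hepatocyte lineage, while the RNA came from all cells of the homogenized liver. Whether the control mice also carried Alb-Cre is not stated in the labels, and neither is age. YAP is the co-activator at the end of the Hippo pathway and binds DNA through TEAD factors. The question put to these data was how the respiratory chain subunits stood after 3 and 7 days of YAP induction, complex by complex.

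Hepatocytes are rich in mitochondria, and their fatty acid oxidation, urea synthesis and gluconeogenesis depend on the chain. Complex I (NADH dehydrogenase) has a core of catalytic subunits surrounded by accessory subunits, complex II (succinate dehydrogenase) is also an enzyme of the citric acid cycle, complex III passes electrons from ubiquinol to cytochrome c, and complex IV reduces oxygen. Part of the core of complexes I, III, IV and V is encoded in mitochondrial DNA, and those genes were not analysed here. The promoters of many nuclear subunit genes are known to bind NRF1, GABP (an ETS factor), YY1 and ERRα.

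Promoter windows of 300 bases (250 before to 50 after the transcription start) were taken from RefSeq on GRCm38.p6 for 68 of the 80 members, 66 by symbol and 2 by synonym, which gave 73 windows. Both strands were searched for fixed letters, and a match is a description of the letters and not of a bound site. The NRF1 letters GCATGCGC were in 13.7% of the members' windows against 2.71% of all 32851 windows. The YY1 letters AAGATGGCG were in 9.59% against 1.403%, and the ERRα letters TCAAGGTCA in 2.74% against 0.423%. Among the 73 windows these are 10 for NRF1, 7 for YY1 and 2 for ERRα. For the ETS letters CCGGAAGT the shares were 6.85% and 3.89%, and for the SP1 letters GGGGCGGGG 16.4% and 11.4%. The TEAD letters GGAATG were in 10.96% of the members' windows against 14.7% of all windows. The HNF4A letters CAAAGTCCA were in 0% against 0.475%. The members' windows had a median GC content of 57.7%, against 52.7% for all windows, and the part of GC content in these shares was not tested. The windows printed here are written 5′ to 3′ on the strand of the gene, with NRF1, ETS and ERRα letters in capitals. They are those of the 4 members lower at 7 days whose window held such letters, and that of the member higher at 7 days. Ndufs3 lies at chr2:90904672-90904971 (minus strand) and holds ETS letters, Atp5k at chr5:108434350-108434649 (minus) and holds NRF1 letters that overlap on both strands, Sdhd at chr9:50603800-50604099 (minus) and holds ERRα letters, Atp5h at chr11:115419870-115420169 (minus) and holds ETS letters. Cox6b2 lies at chr7:4753045-4753344 (minus) and holds none of the NRF1, ETS, YY1 or ERRα letters.
Ndufs3: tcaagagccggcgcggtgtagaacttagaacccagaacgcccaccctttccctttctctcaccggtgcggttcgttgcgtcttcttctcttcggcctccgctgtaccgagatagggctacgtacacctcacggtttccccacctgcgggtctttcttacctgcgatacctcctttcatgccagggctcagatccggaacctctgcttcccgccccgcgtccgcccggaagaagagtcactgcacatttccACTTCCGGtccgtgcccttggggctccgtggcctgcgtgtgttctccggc
Atp5k: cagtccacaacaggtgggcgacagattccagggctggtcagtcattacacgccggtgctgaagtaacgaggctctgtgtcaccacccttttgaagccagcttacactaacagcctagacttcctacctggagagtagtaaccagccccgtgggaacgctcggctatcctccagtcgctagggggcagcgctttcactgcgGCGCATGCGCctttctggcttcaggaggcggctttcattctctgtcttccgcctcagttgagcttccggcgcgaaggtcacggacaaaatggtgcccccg
Sdhd: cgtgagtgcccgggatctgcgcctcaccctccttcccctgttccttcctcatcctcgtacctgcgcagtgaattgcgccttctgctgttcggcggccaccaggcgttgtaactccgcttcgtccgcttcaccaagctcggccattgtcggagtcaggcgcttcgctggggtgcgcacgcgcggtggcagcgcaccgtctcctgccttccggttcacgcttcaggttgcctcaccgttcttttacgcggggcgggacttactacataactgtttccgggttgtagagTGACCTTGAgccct
Atp5h: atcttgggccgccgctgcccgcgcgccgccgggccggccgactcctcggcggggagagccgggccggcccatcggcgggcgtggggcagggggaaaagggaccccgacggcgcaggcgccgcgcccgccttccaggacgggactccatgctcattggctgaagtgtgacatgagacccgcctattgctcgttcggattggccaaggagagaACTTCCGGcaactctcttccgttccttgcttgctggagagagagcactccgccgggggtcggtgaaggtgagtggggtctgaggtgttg
Cox6b2: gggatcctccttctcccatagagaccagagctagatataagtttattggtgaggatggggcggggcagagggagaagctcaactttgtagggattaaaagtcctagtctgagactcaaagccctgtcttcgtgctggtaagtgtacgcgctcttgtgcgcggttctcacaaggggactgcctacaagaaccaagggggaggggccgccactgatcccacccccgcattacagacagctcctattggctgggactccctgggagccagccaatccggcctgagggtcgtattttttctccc

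The libraries were unequal in ways that bear on abundant genes. Reads on genes ranged from 1251396 to 5495697 in control livers, from 2660233 to 3681416 at 3 days and from 5312486 to 5941357 at 7 days. The most read gene of each library had between 1297 and 1522 reads per kilobase whatever the depth, so that this maximum equals 1024 eRPKM in the shallowest library (control 4) and 245 to 277 eRPKM in the 7-day livers. The median eRPKM of the 80 members was 91.9, 81.9, 98.0 and 117 in control livers 1 to 4, 116, 99.2, 82.1 and 113 at 3 days, and 69.97, 65.1 and 67.7 at 7 days. It was lowest in all 3 of the 7-day livers, which were also among the deepest libraries, and highest in the shallowest control. In control 2, the library nearest in depth to the 7-day livers, the members' median was 456 reads per kilobase against 364 to 392 at 7 days. Because of this, values after quantile normalization (each library given the same distribution of values) stand beside the deposited ones below. All 3 of the 7-day livers, controls 2 and 3 and 3-day livers 3 and 4 had more Xist than the Y-linked Ddx3y. Controls 1 and 4 and 3-day livers 1 and 2 had more Ddx3y. No 7-day liver did, so sex as read from these genes is partly confounded with 7 days of induction. The column names of 3 days 1, 3 days 4 and 7 days 2 carry the suffix MF, which the labels do not explain. The YAP targets Cyr61 and Ctgf rank the groups in the labelled order (Cyr61 5.76 to 14.3 eRPKM in control livers, 26.8 to 53.4 at 3 days and 90.5 to 91.3 at 7 days), while Yap1 itself, at 13.9 to 21.1, 15.3 to 19.3 and 17.4 to 19.0 eRPKM, overlapped in all 3 groups.

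**Figure D1:**
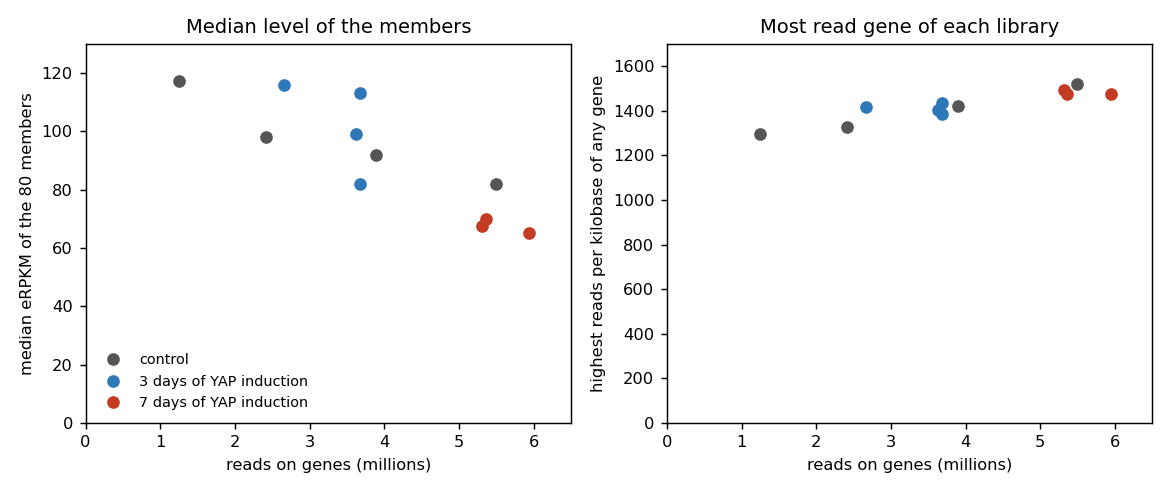
Left, the median eRPKM of the 80 respiratory chain members in each of the 11 livers against reads on genes; right, the highest reads per kilobase of any gene in each library against the same axis. The 7-day livers sit lowest on the left (65.1 to 69.97 eRPKM), and on the right the 11 libraries lie between 1297 and 1522 reads per kilobase.

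After 3 days 0 of the 80 members were called as changed, by limma as deposited and in each alternative analysis, limma-voom on reads recovered from the eRPKM included. A call needed an adjusted p under 0.01 (limma on log2 of eRPKM plus 0.5, Benjamini-Hochberg over the 14244 genes) and a log2 fold change beyond 0.5 in size. With these criteria 0.0421% of all genes were called at 3 days, or 6 genes, and 4 of the 80 members had an unadjusted p under 0.05 against 12.1% of all genes. The members' median log2 fold change was 0.05, beside 0.02 for all genes, and by complex the medians were 0.18 for complex I, 0.04 for II, 0.04 for III, 0.03 for IV and 0.02 for V. In 2 complex I members every 3-day liver lay above every control liver (3.38% of all genes did so), and in 0 below (2.25%). These were chosen after their values were seen. Ndufs7, a core subunit next to the quinone site, read 53.9, 51.4, 54.8 and 46.1 eRPKM in control livers and 67.2, 64.2, 56.3 and 88.0 at 3 days, and Ndufb6, an accessory subunit of the membrane arm, 79.3, 76.6, 77.7 and 78.4 against 124, 90.6, 86.4 and 117. Their log2 fold changes of 0.40 and 0.40 did not pass (adjusted p = 0.28 and 0.26).

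After 7 days the members were mostly lower than in control livers. As deposited, 14 of the 80 members fell and 1 rose, 15 calls in all where 23.8% of all genes were called. That is 17.5% falling where 5.77% of all genes fell, and 1.25% rising where 18% of all genes rose. All 3 of the 7-day livers were below all 4 controls for 55 members (68.8%, against 13.3% of all genes) and above them for 1 (against 36.7%). The members' median log2 fold change was −0.54 beside 0.26 for all genes, and 72 of the 80 were below 0. At an adjusted p under 0.05 with any fold, 40 members were lower, where 9.98% of all genes were. After quantile normalization the median was −0.28 beside −0.08, 64 members were below 0, and 8 fell and 1 rose. That is 10% of members falling where 12.8% of all genes fell, and 1.25% rising where 13.0% rose, so under this scaling the share that fell was not above the background. On the quantile scale every 7-day liver was below every control for 40 members (50%, against 28.4% of all genes). With log2 depth in the model, or with control livers 1 and 2 as the only controls, 1 member was called, Ndufs1. That is 1.25% of members falling where 4.05% and 4.06% of all genes fell, and 0% rising where 7.72% and 9.87% rose. Among the 7 livers with more Xist than Ddx3y 1 member was called, Ndufs5, a count without a share over all genes beside it. Single libraries also set the number of calls, which was 15 with all livers. It was 7, 21, 5 and 8 without control 1, 2, 3 and 4, and 16, 9, 21 and 11 without 3 days 1, 2, 3 and 4. Without 7 days 1, 2 and 3 it was 4, 1 and 1. No share over all genes stands beside these counts. Fewer cells of a type and less RNA per cell cannot be told apart in whole liver RNA.

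Genes as abundant as the members were themselves lower at 7 days in the deposited values. Among genes with a mean of 50 to 100 eRPKM the median log2 fold change was −0.21 for all 1045 genes and −0.46 for the 31 members. Between 100 and 200 eRPKM it was −0.55 for all 484 genes and −0.67 for the 32 members, and between 20 and 50 eRPKM 0.09 and −0.54 (9 members). On the quantile scale the 3 bands from low to high gave −0.63, −0.30 and −0.19 for members and −0.08, −0.04 and −0.08 for all genes. In each of these bands and both scalings the members' median lay below that of all genes, by the least in the highest band.

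**Figure D2:**
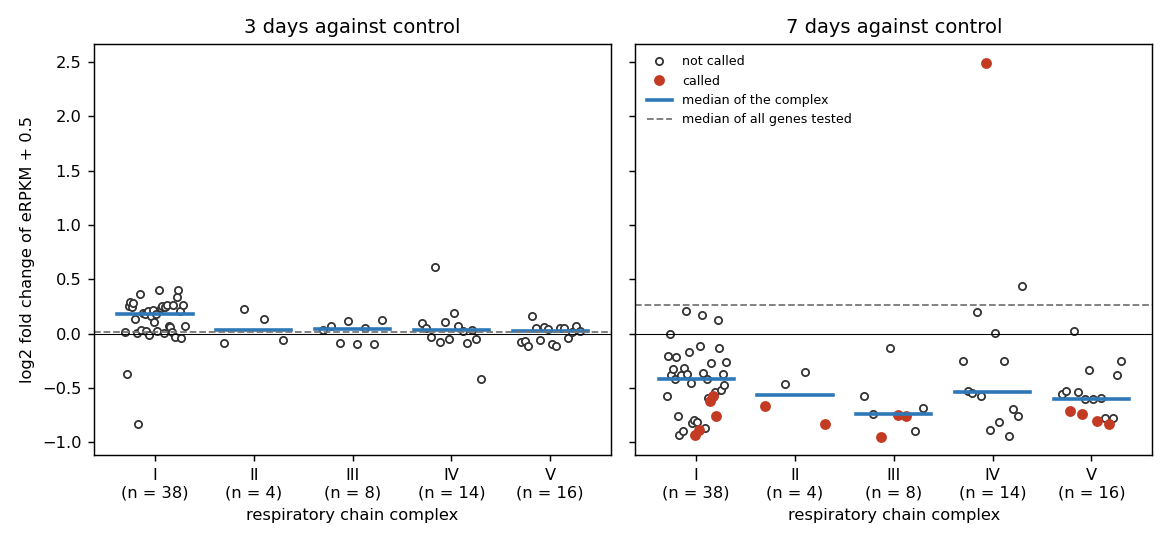
Log2 fold change of eRPKM + 0.5 for each of the 80 members (points), grouped by complex, at 3 days and at 7 days against control. Red points are called, the blue line is the median of the complex and the dashed line the median of all genes tested. At 7 days the medians of all 5 complexes lie between −0.42 and −0.74, below the dashed line at 0.26.

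Complex I had 5 called falls among its 38 members at 7 days, a median log2 fold change of −0.42 (−0.34 and 6 falls on the quantile scale), and 26 members in which all 7-day livers were below all controls. The 7 nuclear core subunits, which hold the flavin, the iron-sulfur clusters and the quinone site, had 2 falls and a median of −0.47, and the 31 accessory subunits 3 falls and a median of −0.41. Ndufs1, the largest core subunit and a carrier of iron-sulfur clusters, gave 48.7, 47.9, 48.6 and 47.4 eRPKM in control livers, 53.4, 50.02, 45.6 and 53.7 at 3 days, and 31.4, 32.4 and 29.7 at 7 days. The control and 3-day livers overlapped and the 7-day livers were clear of both, although control depth varied widely. It fell against control by 0.62 ± 0.12 (SE) on the log2 scale (limma adjusted p = 0.00151; exact two-sided permutation p = 0.0286, the smallest that 3 against 4 livers allow). It was called in 26 of the 28 alternative analyses, with values from −0.91 to −0.59, more often than any other member, and was lost without 7 days 3 and in the 7 livers with more Xist than Ddx3y. Its exons (chr1:63190170-63223396, minus strand, mm9) overlap those of Gm11602, and counting was unstranded.

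Ndufs3, a core subunit of the quinone-reducing arm, read 100, 92.7, 93.9 and 101 eRPKM in control livers, 92.2, 107, 91.4 and 101 at 3 days and 68.6, 58.7 and 68.0 at 7 days, without overlap between 7 days and the rest (log2 fold change −0.57 ± 0.13, adjusted p = 0.00352 by limma). On the quantile scale it was −0.34 with an adjusted p of 0.0162 and was not called. Among accessory subunits, Ndufb3 of the membrane arm gave 71.6, 76.9, 73.5 and 108 eRPKM in control livers, 105, 92.5, 59.5 and 103 at 3 days and 44.6, 39.6 and 42.9 at 7 days. Here control 4 stood above the other controls, and the 7-day livers were below all others (−0.93 ± 0.21, adjusted p = 0.00362). Ndufb5, also of the membrane arm, read 76.3, 74.1, 65.0 and 101 eRPKM, then 89.7, 79.8, 61.7 and 90.0, then 49.3, 37.6 and 39.7 (−0.89 ± 0.19, adjusted p = 0.00246). Ndufs5, a small intermembrane-space subunit, read 32.8, 35.3, 41.2 and 32.0 eRPKM, then 37.2, 27.3, 33.7 and 41.4, then 21.3, 20.2 and 20.1 (−0.76 ± 0.16, adjusted p = 0.00253). Ndufb3, Ndufb5 and Ndufs5 were also called on the quantile scale, at −0.85, −0.83 and −1.02.

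In 12 of the 38 complex I members the 7-day livers overlapped the controls. One was Ndufa8, an accessory subunit with a twin-cysteine fold, which read 49.9, 46.3, 51.8 and 40.9 eRPKM in control livers and 60.03, 46.1 and 57.8 at 7 days, a log2 fold change of 0.21. The values for Ndufb7 and Ndufs6, also accessory, were 0.17 and 0.13, and that of Ndufa11 was −0.01. None passed the test, and these 4 were chosen after their values were seen. The most abundant members of the complex were Ndufa4, which is now usually placed in complex IV, and Ndufb9, and in both the 7-day livers were below all controls. Ndufa4 had 151, 123, 206 and 328 eRPKM in control livers and 116, 105 and 113 at 7 days, with −0.75 and an adjusted p of 0.0573. Its paralog Ndufa4l2, known as a hypoxia-induced gene, was near the floor of the table at 1.55, 2.20, 2.93 and 1.61 eRPKM in control livers, 0.378, 1.11, 1.64 and 0.822 at 3 days and 0.565, 1.53 and 0.570 at 7 days. It did not pass as deposited (−0.93, adjusted p = 0.0541) and was called on the quantile scale (−1.41). Its 7-day livers were below all controls, by a margin of less than 0.1 eRPKM.

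Complex II is the smallest of the 5 and wholly nuclear encoded, and all 4 of its members had every 7-day liver below every control. Its flavoprotein Sdha, which oxidizes succinate, gave 123, 109, 146 and 134 eRPKM in control livers, 117, 119, 130 and 113 at 3 days and 87.6, 70.2 and 83.2 at 7 days, and fell by 0.67 ± 0.14 on the log2 scale (adjusted p = 0.00302). Sdhd, a membrane anchor that binds ubiquinone, gave 157, 137, 183 and 247, then 203, 158, 136 and 188, then 101, 93.8 and 102 eRPKM, and fell by 0.83 ± 0.20 (adjusted p = 0.00659). The iron-sulfur subunit Sdhb, at −0.46, and the other anchor Sdhc, at −0.36, did not pass (adjusted p = 0.0207 and 0.0624). The median of the complex was −0.56 as deposited and −0.27 on the quantile scale, where none of the 4 was called, with Sdha at −0.32 and Sdhd at −0.32.

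Complex III had a median of −0.74, the lowest of the 5 as deposited but not on the quantile scale, with 3 falls among 8 members and 5 members with all 7-day livers below all controls. The Rieske iron-sulfur protein Uqcrfs1, which takes electrons from ubiquinol, had 164, 143, 167 and 255 eRPKM in control livers, 216, 181, 148 and 198 at 3 days and 106, 103 and 106 at 7 days (−0.76 ± 0.20, adjusted p = 0.00911). The structural core protein Uqcrc2 had 102, 97.6, 120 and 156, then 122, 110, 93.7 and 115, then 74.6, 66.1 and 67.4 eRPKM (−0.75 ± 0.17, adjusted p = 0.00441). The small subunit Uqcrb, near the quinone site, had 136, 115, 174 and 253, then 203, 133, 124 and 162, then 82.4, 84.0 and 84.6 eRPKM, and its −0.95 ± 0.25 was the lowest fitted value of all 80 members (adjusted p = 0.00918). In each of these, control 4 was the highest control and the 7-day livers were below every other liver. On the quantile scale the median of complex III was −0.32 and none of the 8 was called, with Uqcrfs1, Uqcrc2 and Uqcrb at −0.23, −0.43 and −0.48.

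Complex IV had 0 called falls and 1 called rise among 14 members, with a median of −0.54 (−0.19, 0 falls and 1 rise on the quantile scale), and 8 members with all 7-day livers below all controls. Several of its subunits exist as a ubiquitous or liver form and a form found in heart, skeletal muscle or testis, and the 2 kinds differed in level here. Cox6a1, the liver form of a regulatory subunit, averaged 207 ± 66.8 eRPKM (SD, n = 4) in control livers, and its muscle paralog Cox6a2 read 0, 0.803, 0 and 0. Cox8a averaged 204 ± 73.6, and Cox8b was above 0 in 1 control liver, at 1.11. Cox7a2 averaged 100 ± 28.2 and Cox7a1, the muscle form, 3.75 ± 1.97. At 7 days Cox6a1 and Cox8a were at −0.55 and −0.76, Cox7a2 at −0.82 and Cox7b at −0.94, and none passed (adjusted p = 0.069, 0.0268, 0.0215 and 0.017). Cox7a2l, which links complexes III and IV in supercomplexes, was at −0.25.

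The one rise was Cox6b2, the testis form of subunit VIb. It read 0.412, 0.876, 0 and 0 eRPKM in control livers, 0, 0.443, 1.31 and 0 at 3 days and 2.40, 8.37 and 2.42 at 7 days. In reads these are 1, 3, 0 and 0, then 0, 1, 3 and 0, then 8, 31 and 8, and liver 2 of the 7-day group, one of the MF libraries, holds most of them. Its log2 fold change was 2.49 ± 0.55 (adjusted p = 0.00335 by limma; exact two-sided permutation p = 0.0286) as deposited and 2.001 on the quantile scale, and it ran from 1.63 to 3.82 over the 28 alternatives, in 20 of which it was called. The size depends on the added 0.5 eRPKM, since the control livers held 0 to 3 reads. Outside the 7-day group Cox6b2 reached 0.5 eRPKM only in control 2 and 3 days 3. It thus passed the filter of 3 livers only through the group where it was high, and its p values are no independent support. Its ubiquitous paralog Cox6b1 averaged 147 ± 53.4 eRPKM in control livers and 94.3 ± 6.34 (SD, n = 3) at 7 days, with −0.57 and an adjusted p of 0.0631, so the level of Cox6b2 per kilobase stayed far under that of Cox6b1.

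Complex V had 4 called falls among 16 members, a median of −0.60 (−0.24 and 2 falls on the quantile scale), and 12 members with all 7-day livers below all controls. In the catalytic head and central stalk, where ATP is made, the 5 members had a median of −0.54 as deposited and 0.01 on the quantile scale. Atp5b, the catalytic beta subunit and the most abundant member, read 214, 173, 281 and 362 eRPKM in control livers, 267, 231, 221 and 228 at 3 days and 179, 156 and 180 at 7 days. Its difference was −0.53 as deposited and changed sign to 0.19 on the quantile scale, and neither passed. The gamma subunit Atp5c1 of the rotor stalk read 97.3, 82.9, 112 and 139, then 111, 97.7, 85.9 and 98.6, then 70.1, 60.6 and 63.1 eRPKM and was called at −0.71 ± 0.17 (adjusted p = 0.0065), and on the quantile scale it was at −0.42 and not called. The delta subunit Atp5d, next to it, was at 0.03 as deposited and 0.48 on the quantile scale. Atp5c1 and Atp5d fall outside the naming rule and were chosen after their values were seen. The exact two-sided permutation p of Atp5c1 was 0.0571.

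The peripheral stalk, which holds the head still, had 2 falls among 4 members and medians of −0.67 as deposited and −0.28 on the quantile scale. Atp5f1 (subunit b) read 48.9, 41.2, 57.6 and 76.6, then 60.9, 48.9, 48.8 and 51.8, then 34.8, 30.4 and 32.5 eRPKM, and its value was −0.74 ± 0.19 as deposited (adjusted p = 0.00838) and −0.78 on the quantile scale, where it was also called. Atp5h (subunit d) read 164, 147, 170 and 282, then 202, 164, 150 and 171, then 113, 100 and 105 eRPKM (−0.80 ± 0.21, adjusted p = 0.00896), and on the quantile scale −0.27 and not called. For both stalk subunits the 7-day livers were below all others. The exact two-sided permutation p against control was 0.0571 for Atp5f1 and 0.0286 for Atp5h. The 3 genes of the c ring, whose proteins turn as protons pass, encode the same mature protein. Atp5g1, Atp5g2 and Atp5g3 averaged 128, 123 and 173 eRPKM in control livers, and at 7 days their log2 fold changes were −0.60, −0.33 and −0.60, with adjusted p values of 0.0187, 0.2 and 0.0306. Atp5k (subunit e), which helps synthase dimers form, read 154, 123, 175 and 236, then 193, 147, 134 and 184, then 89.9, 91.6 and 99.5 eRPKM (−0.84 ± 0.21, adjusted p = 0.00764), and on the quantile scale −0.34 and not called. Its exact two-sided permutation p against control was 0.0571.

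**Figure D3:**
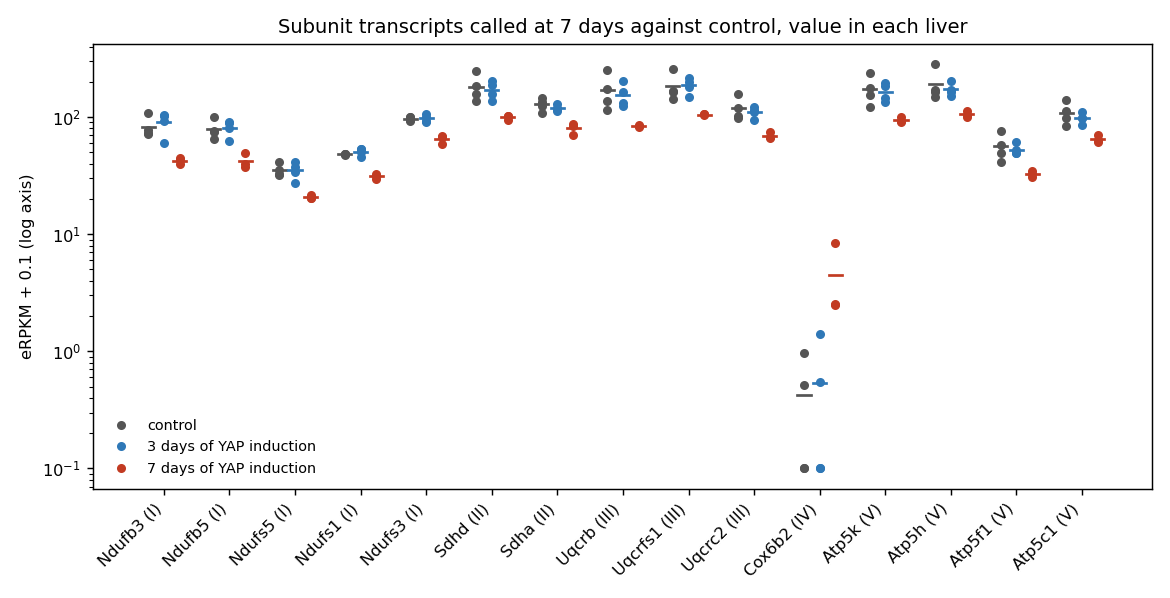
eRPKM + 0.1 on a log axis for the 15 members called at 7 days against control, 1 point per liver and a bar at each group's mean. The 7-day livers lie below every control for the 14 falling members and above every control for Cox6b2.

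The level of a whole complex can be followed liver by liver as the mean log2 over its members. Over all 80 members this mean on the quantile scale lay between 5.96 and 6.12 in control livers, between 5.97 and 6.15 at 3 days and between 5.77 and 5.81 at 7 days. The 3-day livers overlapped the controls and the 7-day livers were below both. As a share of all reads on genes the members held 0.645% to 1.002% in control livers, 0.682% to 0.902% at 3 days and 0.496% to 0.549% at 7 days.

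**Figure D4:**
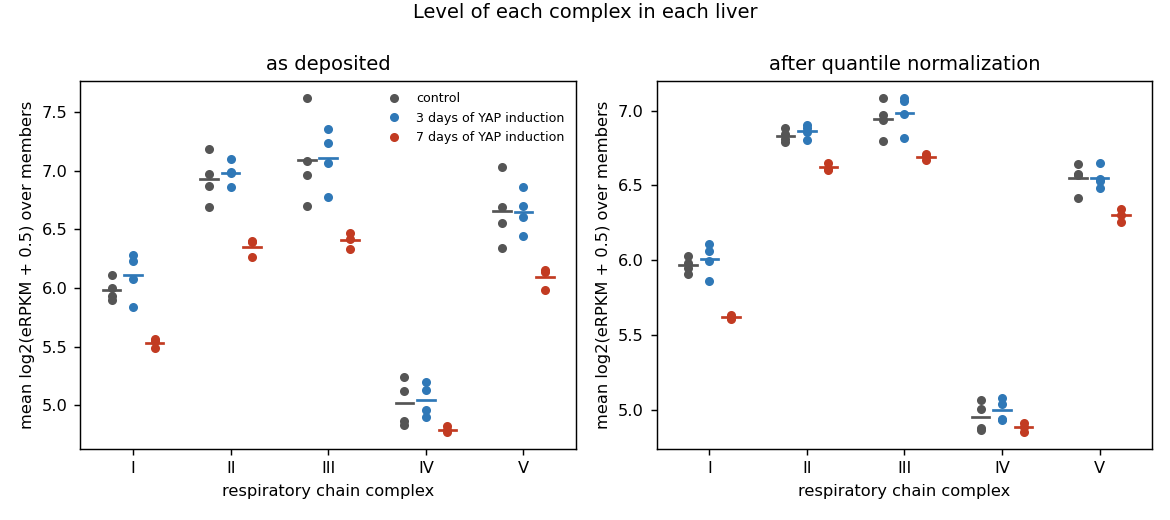
Mean log2(eRPKM + 0.5) over the members of each complex in each liver, as deposited and after quantile normalization, with a bar at each group's mean. Over the 80 members the 7-day livers read 5.77 to 5.81 on the quantile scale and the controls 5.96 to 6.12.

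Set directly against the 3-day livers, 11 members fell and 1 rose at 7 days (13.8% falling, where 5.31% of all genes fell, and 1.25% rising, where 14% rose). After quantile normalization 9 members fell (11.3%, where 10.04% of all genes did) and 0 rose (where 10.1% did), so the share that fell was near the background. This comparison uses the same 7-day livers as that against control, so the 2 are not independent. At an adjusted p under 0.05 with any fold, 49 members were lower, where 10.3% of all genes were. In 63 members all 7-day livers were below all 3-day livers (13.8% of all genes). Of the falls 8 were in complex I, whose median was −0.61, 2 in complex II (−0.63), 1 in complex III (−0.80) and 0 in complexes IV (−0.50) and V (−0.60). Ndufs1 was at −0.69 ± 0.12 (adjusted p = 0.000919). The members called here and not against control were Ndufv2, Ndufs8, Ndufc1 and Sdhb. Ndufv2, an iron-sulfur subunit of the NADH-oxidizing arm, had 87.9, 58.0, 50.1 and 75.4 eRPKM at 3 days and 39.0, 42.2 and 37.7 at 7 days, beside 53.5, 50.6, 56.5 and 59.8 in control livers (−0.73 against 3 days, adjusted p = 0.00784, and −0.47 against control, adjusted p = 0.057). Ndufs8, a core iron-sulfur subunit, had 96.5, 90.2, 69.1 and 123 eRPKM at 3 days and 54.2, 56.7 and 57.2 at 7 days, beside 70.01 to 92.7 in control livers. In these genes 3-day livers 1 and 4, the MF libraries, were the highest of their group. In 53 of the 80 members both MF livers at 3 days were above both others (23.2% of all genes). The 12 calls became 8, 14, 8 and 30 without control 1, 2, 3 and 4, and 6, 8, 34 and 5 without 3 days 1, 2, 3 and 4. Without 7 days 1, 2 and 3 they became 3, 1 and 1. These counts stand without a share of all genes. Cox6b2 was at 2.38 against 3 days (adjusted p = 0.00547) and its 3-day livers, at 0 to 1.31 eRPKM, overlapped the controls. Its exact two-sided permutation p against 3 days was 0.0571.

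Further properties of the members moved with the values. Transcript GC content, over the 73 members with a mean of at least 20 eRPKM, correlated with the log2 fold change at 7 days at Spearman's 0.39 and Pearson's 0.38 as deposited, and 0.51 and 0.48 on the quantile scale. The 3991 genes of all kinds at that level gave Spearman's 0.27 and 0.33. These are correlations across genes of the same 7 livers and carry no test. On the quantile scale the 31 members under 50% GC had a median of −0.42 and the 42 others −0.16. As to copies, 17 members have a near-identical copy elsewhere in the genome (at least 95% identity over 100 bases or more) along at least 50% of the transcript, which read counting could split. These held 7 of the 14 falls, among them Ndufb3, Ndufs3, Ndufs5, Uqcrb, Atp5f1, Atp5h and Atp5k, and had a median of −0.76 against −0.46 for the 50 members with no copy. The 41 members with neither a copy nor an exon overlap with another gene had 3 falls, 1 rise and a median of −0.46. The part of GC content, copies and depth in the falls was not tested.

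**Figure D5:**
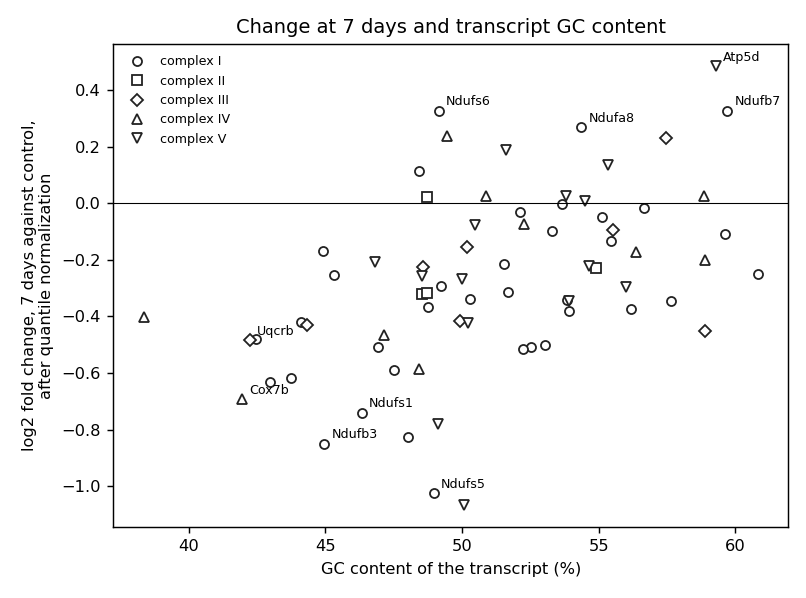
Log2 fold change at 7 days against control after quantile normalization (vertical axis) against transcript GC content in percent (horizontal axis) for the members, 1 point per gene. Members under 50% GC have a median of −0.42 and those above −0.16.

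Genes that work beside the chain were read from fixed lists. At 7 days against control 5.77% of all genes fell and 18% rose as deposited, and 12.8% and 13.0% on the quantile scale. No list was tested against these shares. Of 6 subunits and electron carriers that the symbol rule left out, 0 were called at 7 days and the median was −0.47. On the quantile scale the median was −0.03 and 1 fell. That one was cytochrome c, Cycs, at 61.4, 58.9, 71.9 and 94.8 eRPKM in control livers and 48.3, 40.0 and 44.5 at 7 days. Its log2 fold change was −0.67 (limma adjusted p = 0.0193), and −0.59 on the quantile scale (limma adjusted p = 0.00761). Of 13 complex I assembly factors 1 fell, Ndufaf6 (−1.01, adjusted p = 0.00491), with a median of −0.37. Of the same 13, 5 fell on the quantile scale, Ndufaf1, Ndufaf2, Ndufaf4, Ndufaf6 and Timmdc1, and the median was −0.55. Of 29 assembly factors of complexes II to V 2 fell, Cox16 (−0.83) and Lrpprc (−0.80), the latter a protein that stabilizes mitochondrial mRNA, and the median was 0.01 as deposited and −0.29 on the quantile scale, where 5 fell and 1 rose. Of 7 other dehydrogenases that feed ubiquinone 2 fell, Etfdh (−0.72), the entry point for electrons from fatty acid oxidation, and the choline dehydrogenase Chdh (−0.58, not called on the quantile scale at −0.44), with a median of −0.52. After quantile normalization 2 of the 7 fell, Etfdh and the glycerol phosphate dehydrogenase Gpd2, and the median was −0.37.

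The citric acid cycle list of 17 genes had 4 falls and 1 rise and a median of −0.25 (4 falls, 1 rise and −0.13 on the quantile scale, with Dlat in place of Pdhb). The falls were in Sucla2 (−0.97) and Suclg1 (−0.53), subunits of succinyl-CoA ligase, in fumarase Fh1 (−0.91) and in Pdhb of pyruvate dehydrogenase (−0.58), which on the quantile scale was at −0.29 and not called. The rise was in Idh2, the NADP-dependent mitochondrial isocitrate dehydrogenase, which read 54.4, 70.9, 59.9 and 47.6 eRPKM in control livers, 53.3, 122, 134 and 83.2 at 3 days and 128, 113 and 130 at 7 days (1.09 ± 0.27, adjusted p = 0.00641). Of 15 carriers and outer membrane proteins 2 rose and 2 fell, in both scalings. As deposited 18% of all genes rose and 5.77% fell, and on the quantile scale 13.0% and 12.8%. The ADP/ATP carrier of heart and muscle, Slc25a4, read 6.83, 7.14, 3.69 and 3.04 eRPKM in control livers and 36.0, 44.5 and 39.7 at 7 days (2.91 ± 0.26, adjusted p = 7.79e-06), while Slc25a5, the form abundant in liver, was at −0.19 and not called. On the quantile scale Slc25a4 was at 2.76 and Slc25a5 changed sign to 0.49, which was not called (limma adjusted p = 0.0247). The uncoupling protein family member Ucp2, which Kupffer cells are known to express, read 5.84, 11.9, 11.02 and 3.75 and then 32.6, 34.3 and 37.4 eRPKM (2.16 ± 0.35, adjusted p = 0.000405). The falls were in the import receptor Tomm70a (−0.83) and the cristae protein Chchd3 (−0.77).

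Of 12 regulators of nuclear-encoded subunits and of mitochondrial transcription 1 was called, the coactivator Pprc1, which rose by 1.29 ± 0.33 on the log2 scale (adjusted p = 0.00899) and was not called on the quantile scale (0.79). The list's median was −0.02 as deposited and −0.37 on the quantile scale, where 0 of the 12 rose and 3 fell: Tfam, the mitochondrial transcription factor Tfb2m (−0.72) and the GABP subunit Gabpb1 (−0.94). Ppargc1a, a coactivator that drives mitochondrial biogenesis, read 11.5, 11.3, 8.75 and 4.66 eRPKM in control livers and 9.45, 12.5 and 7.59 at 7 days, with full overlap. Nrf1, Gabpa and Esrra, whose letters were searched in the promoters above, were at 0.46, −0.20 and 0.21 as deposited and none was called, with Nrf1 and Esrra at −0.22 and −0.22 on the quantile scale. Tfam, which coats and transcribes mitochondrial DNA, read 30.0, 29.9, 27.0 and 21.8 eRPKM in control livers and 18.7, 17.8 and 16.2 at 7 days (−0.61, adjusted p = 0.0108, which misses the threshold), and on the quantile scale it was called as a fall (−0.95, adjusted p = 8.48e-05).

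Markers of the liver's cell types moved between the same groups. Their calls stand beside 18% of all genes rising and 5.77% falling as deposited (13.0% and 12.8% on the quantile scale). The marker lists were not tested against these shares. The summed eRPKM of 7 hepatocyte markers was 1472 to 4544 in control livers and 1121 to 1261 at 7 days, with 2 of the 7 called as falls. Their median log2 fold change was −0.88 as deposited and −0.02 on the quantile scale, where 2 also fell, and several of these genes lie near the highest read density of their library. The sum of the 4 macrophage markers tested was 134 to 259 in control livers, 167 to 315 at 3 days and 459 to 532 at 7 days, with 2 of the 4 called as rises (all 4 on the quantile scale). The endothelial sum was 46.9 to 95.02 in control livers and 115 to 123 at 7 days (1 of 4 rose), and the cholangiocyte sum 37.5 to 49.0 and 61.5 to 111 (1 of 5 rose). At 3 days the cholangiocyte sum was 40.5 to 84.5, which overlapped 7 days. Most of it was Spp1, at 32.0 to 43.8 eRPKM in control livers and 49.9 to 96.2 at 7 days, which was not called. The called gene was Krt7, at 2.06, 1.85 and 1.84 eRPKM at 7 days. Stellate cell markers, 0 of 4 called (1 fell on the quantile scale), were at 133 to 197 in control livers and 90.6 to 101 at 7 days. The lymphocyte sums were small, 2.92 to 6.80 and 4.597 to 8.81 for T cells (1 of 5 rose, and on the quantile scale another fell) and 2.46 to 5.27 and 2.05 to 4.90 for B cells (0 of 3 called). Erythroid markers stood at 44.2 to 108 and 26.8 to 32.5 (1 of 2 fell). Of the skeletal muscle markers 1 of 5 passed the filter and was not called, and adipose markers did not pass it. The part of cell composition in the members' values was not tested.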

How the data were processed

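Total RNA from 11 whole livers was sequenced as paired-end, unstranded TruSeq libraries. According to the submitters' processing notes and the study's methods, reads were aligned to mm9 with TopHat2 2.0.8 and counted with featureCounts 1.4.5-p1. The deposited table gives each liver as RPKM (named eRPKM), 1 value per gene and library, scaled by the authors by exon length and library size. How duplicate reads were handled is not given in the sources used here. The columns with the authors' own comparisons (mean signal, log2 fold change, adjusted p) were not used.

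Reads were recovered from the steps of the low eRPKM values, and all 177553 values (100%) came out whole within 0.1 reads. They served for the depths and for limma-voom. The main test was limma 3.58.1 in R 4.3.3 (trended empirical Bayes) on log2(eRPKM + 0.5), over the 14244 genes that reached 0.5 eRPKM in 3 libraries or more. All 11 livers entered 1 fit with 3 groups, and a call required p below 0.01 after Benjamini-Hochberg adjustment together with a log2 fold change above 0.5 in size. Fold changes are on this scale, so those of low genes come out too small. The adjusted p values in the text come from this fit. Differences of single genes were also put to the exact two-sided permutation test, whose smallest p is 0.0286 for 3 against 4 and for 4 against 4 livers. Not every call reached this floor. At 7 days against control the permutation p was 0.0571 for Atp5c1, Atp5f1 and Atp5k, and 0.0286 for Atp5h. The table is in eRPKM, so the study's count test was not run as the main test. Scripts were tested on simulated data.

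Within groups the Spearman correlation over all genes was 0.945 to 0.976 (control), 0.922 to 0.964 (3 days) and 0.974 to 0.986 (7 days), and over the members 0.913 to 0.975, 0.827 to 0.974 and 0.972 to 0.984. Each library is described as 1 liver, and no source says whether livers shared a litter, so p values measure the spread between these livers.

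The members and the gene lists were chosen with earlier results of these data known. Named members are the 10 largest called rises and falls of each comparison, the 2 most abundant of each complex in control livers, the 2 lowest and 2 highest changes at 7 days, complex II and fixed paralog sets. Other members named are marked as chosen after their values were seen. Gene models, exon overlaps and copies (blastn 2.17.0) are from GENCODE M1 on NCBIM37, with mm9 coordinates. Alternatives were another pseudocount and filter, quantile normalization, size factors, limma-voom, the Xist level, the MF suffix or the replicate number as a term, and each library left out. After the data were seen, depth as a term, control 1 and 2 as the only controls, livers with more Xist only, and reads corrected for the shared maximum density were added.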

Additional observations from a re-analysis of the deposited data

Results flagged for a closer look

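Of 84 sets of 4 control or 3-day values examined, 6 held a liver far from the other 3 (Dixon's ratio of the gap to the range above the 95% limit), where chance gives about 1 in 20. Control 4, the shallowest library, was the distant liver for Ndufb3 (ratio 0.854), Atp5h (0.832) and Cox7a2l (0.933). Control 3 was so for Cox8b (ratio 1) and control 2 for Cox6a2 (ratio 1), where the other controls were at 0. For reads on genes at 3 days the distant library was 3 days 1 (0.946).

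The 7-day and 3-day livers differed by limma in 12 members (adjusted p under 0.01 and a log2 fold change above 0.5 in size). That is 15% of members, where 19.3% of all genes were called. The differences on the log2 scale were 2.38 for Cox6b2, −1.04 for Ndufb3, −0.91 for Ndufb5, −0.73 for Ndufs5, −0.81 for Uqcrfs1, −0.73 for Ndufv2, −0.72 for Ndufs8, −0.69 for Sdhb, −0.69 for Ndufs1, −0.67 for Ndufc1, −0.58 for Ndufs3 and −0.58 for Sdha. The part of depth, of sex as read from Xist and Ddx3y, and of the MF libraries in these differences was not tested.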

How the results depend on the processing

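The calls depended on scaling, depth and single libraries, and no member's called direction reversed. At 3 days 0 members were called under each alternative. At 7 days against control the 15 calls became 9 with quantile normalization, 5 with log2 Xist as a term and 24 with the MF suffix as a term. They became 12 with limma-voom (all among the 15), 13 with size factors (10 shared) and 19 with density-corrected reads and size factors (all 15 kept). At an adjusted p under 0.05 with any fold they became 41. The count was 1 with log2 depth as a term, 1 with the 2 deepest controls, 5 with these and quantile normalization, and 1 with Xist-high livers only. Leaving out 1 library gave 1 to 21. With quantile normalization, depth and the 2 deepest controls, 10%, 1.25% and 1.25% of members fell. Of all genes 12.8%, 4.05% and 4.06% fell. Rises were 1.25%, 0% and 0% of members and 13.0%, 7.72% and 9.87% of all genes. At 7 against 3 days the 12 calls became 6 with Xist, 15 with the MF suffix as a term (all 12 kept), 19 with limma-voom and 50 at the looser threshold. They became 4 with depth, 23 with the 2 deepest controls, 1 with Xist-high livers only and 23 with density-corrected reads and size factors. With 1 library left out they ran from 1 to 34. In that comparison 5% and 27.5% of members fell with depth and with the 2 deepest controls, where 4.13% and 6.02% of all genes did. Rises were 0% and 1.25% of members and 7.66% and 14.5% of all genes. The other counts stand here without such a share. The cause was not tested.

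The members' median log2 fold change relative to all genes was 0.03 at 3 days (0.35 with the 2 deepest controls, −0.09 to 0.23 leaving out 1 library). At 7 days it was −0.80, and −0.20 with quantile normalization, −0.36 with depth, −0.49 with the 2 deepest controls, −0.20 with both, and −0.95 to −0.62 leaving out 1 library. At 7 against 3 days it was −0.87, and −0.28 with quantile normalization, −0.53 with depth, −0.28 with the 2 deepest controls and quantile normalization, and −1.01 to −0.77 leaving out 1 library.

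With the replicate number as a block, 0 members were called at 3 days, 6 at 7 days against control and 4 at 7 against 3 days. Same-numbered livers did not deviate together (correlation −0.22 to 0.27 over 10 pairs, 2 above 0.1). This check cannot decide whether the numbers pair livers, because same-numbered livers can differ in Xist and Ddx3y. Depth limits the low isoforms: Cox6b2, Cox6a2 and Cox8b rest on a few reads per library.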

Other observations

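Among the 3-day livers the members split with the MF suffix, whose meaning the labels do not give. Both MF livers were above both others for 53 of 80 members (66.3%, against 23.2% of all genes) and below them for 7 (8.75%, against 32.7%): Cox6b2, Ndufa10, Ndufa4l2, Ndufa8, Ndufb10, Sdha and Uqcrc1. By complex the share above was 71.1% for I, 50% for II, 87.5% for III, 50% for IV and 62.5% for V. Ndufa10, an accessory subunit of complex I, read 34.3 and 38.6 eRPKM in the MF livers and 94.7 and 79.6 in the others, beside 80.1, 74.2, 71.0 and 66.1 in control livers and 67.6, 55.7 and 66.5 at 7 days. Ndufs4, an accessory subunit whose loss causes Leigh syndrome, read 80.7 and 71.1 in the MF livers and 48.5 and 39.7 in the others. These members were chosen after their values were seen, and the split was not tested.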
